A study of Mus musculus with 401 samples.

Results

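The genes described here serve the storage, translation and decay of maternal mRNA in the mouse oocyte: Ybx2, Zar1, Zar1l, Cpeb1, Pabpc1l and Dazl for storage and translation, and Btg4, Cnot6l, Cnot7 and Zfp36l2 for decay. They were chosen by symbol, through the Ensembl gene IDs that carry these symbols. They number 10 of the 43633 gene IDs in the deposited counts.

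A growing oocyte makes large amounts of mRNA, keeps much of it untranslated in particles of RNA-binding proteins, and falls silent in transcription before it is fully grown. When meiosis resumes, stored mRNAs with the right elements in their 3′UTR gain longer poly(A) tails and are translated, while most of the others lose their tails and are degraded. The proteins encoded by these genes bind the stored mRNAs, lengthen or guard their tails, or bring and form the CCR4-NOT deadenylase that removes the tails.

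The samples were single oocytes at the germinal vesicle (GV) stage and, from the same complexes, pools of the surrounding cumulus cells, sequenced as total RNA by RamDA-seq, a full-length method for single cells. All came from fully grown follicles of female B6D2F1 (C57BL/6 x DBA/2) mice. The first set compared ages and diets, and the second set compared ages and hyperovulation. Counts were summed over the libraries of each mouse label, because oocytes of the same mouse are not independent, and the mouse label was the replicate.

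All mice of the first set had received eCG, a gonadotropin, or CARD HyperOva to induce hyperovulation. Young mice were 2 months old on an ad libitum (AL) diet, with 16 oocytes from 2 mouse labels. Middle mice were 9 months old on the AL diet, with 14 oocytes from 4 mice. Old mice were 14 months old on the AL diet, with 16 oocytes from 2 labels, of which Old1_2 stands for more than 1 mouse. CR mice were 9 months old and under calorie restriction (CR), a reduced daily ration begun in adulthood, with 27 oocytes from 3 mice. The matching cumulus pools numbered 15, 15, 16 and 25.

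All mice of the second set were on the AL diet. The groups named by age were hyperovulated and held 24 oocytes from 5 mice at 2 months (2mo), 39 from 8 mice at 4 months (4mo), 16 from 4 mice at 9 months (9mo) and 16 from 5 mice at 14 months (14mo). The group 2moNoH held 32 oocytes from 8 mice of 2 months without hyperovulation. The cumulus pools numbered 24, 40, 16, 16 and 32 in the same order.

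Oocyte libraries held between 559305 and 4536690 counts in the first set, with group medians of 2209910 in Young, 2332130 in Middle, 2293310 in Old and 3578880 in CR. Those of the second set held between 1238440 and 2583460 counts. Cumulus libraries held between 848243 and 2501010 counts in the first set, those of the second between 510029 and 1147290. Values below are CPM, a gene's share of a mouse's summed counts on a common total, scaled by the TMM method within a cell type and set, unless another scale is named. Levels of marker genes and of the left-out library are CPM of plain totals, without TMM scaling. They are relative levels, so that more or fewer cells and more or less RNA per cell cannot be told apart, in cumulus pools above all. Confidence intervals of summed counts and limits set by a count of 0 cover counting error only.

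The labelled cell types were checked against their marker genes. All 13 oocyte markers had counts in the oocytes of every mouse label, with summed levels of 16874 to 21002 CPM in the first set and 20206 to 25053 CPM across the second, and Gdf9 was the most abundant. In cumulus pools the same markers summed to 8.21 to 46.7 CPM and 9.00 to 38.6 CPM, led by Kit. The 12 cumulus markers summed to 387 to 959 CPM in oocytes of the first set and 321 to 411 CPM in those of the second, led by Bmpr1b, against 6772 to 9355 CPM and 4244 to 10701 CPM in cumulus pools, led by Inha.

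Markers of other cell types summed to small amounts, and which cells gave these counts was not tested. Theca and stroma markers reached at most 15.3 CPM in oocytes and 61.5 CPM in cumulus pools, immune markers 13.9 and 31.6 CPM, and red blood cell markers 3.43 and 20.2 CPM. Endothelial markers reached 120.1 CPM in oocytes, led by Pecam1, and 20.8 CPM in cumulus pools. In the oocytes of every mouse label they summed to 74.7 CPM or more. From the first set, 1 complex of mouse Middle3 was left out, since its oocyte-labelled library correlated more with the mean cumulus profile (r = 0.933) than with the mean oocyte profile (r = 0.733). This left Middle3 with 1 complex, that is 1 oocyte and its cumulus pool.

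Among the storage and translation genes, Ybx2 (chr11:69935796-69941605, GRCm38, plus strand) encodes MSY2, a germ cell Y-box protein that packages and stabilises mRNA. Zar1 (chr5:72576806-72581254, minus strand) and its relative Zar1l (chr5:150507055-150518164, minus strand) encode zinc finger proteins that bind maternal mRNA and hold it in store. Cpeb1 (chr7:81347026-81455465, minus strand) encodes the protein that reads the cytoplasmic polyadenylation element. Pabpc1l (chr2:164025450-164050538, plus strand) encodes ePAB, the poly(A)-binding protein of oocytes and early embryos. Dazl (chr17:50279395-50293636, minus strand) encodes a germ cell RNA-binding protein that promotes translation during maturation.

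Among the decay genes, Btg4 (chr9:51060901-51119875, plus strand) encodes the adaptor that brings CCR4-NOT to maternal mRNA. Cnot6l (chr5:96070333-96164171, minus strand) and Cnot7 (chr8:40492540-40515847, minus strand) encode catalytic deadenylase subunits of that complex. Zfp36l2 (chr17:84183931-84187947, minus strand) encodes a zinc finger protein that binds AU-rich elements and recruits deadenylation. Genes on the other strand overlap Btg4 (Layn, 4833427G06Rik, Mir34c and Mir34b), Cnot7 (Zdhhc2 and Vps37a), Cpeb1 (Rpl7a-ps9) and Zfp36l2 (AC132455.1), and Gm15933 overlaps Zar1l on its own strand. These overlaps are of whole gene spans, introns included, and whether reads of these neighbours were counted for the members was not tested. Counts that were not whole numbers, whose source was not tested, occurred in Zar1 in 105 of 127 oocytes of the second set and in Cnot7 in 74, Ybx2 in 65, Zfp36l2 in 42, Zar1l in 21 and Cpeb1 in 9. Btg4, Cnot6l, Pabpc1l and Dazl had whole counts in all of these oocytes.

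All 10 genes were detected in 73 of 73 oocytes of the first set and 127 of 127 of the second. Per length, 9 of them were among the more abundant transcripts of the oocyte, and Zfp36l2 was far below. In CPM per kilobase of gene length (without TMM scaling), the means over the 30 mice of the second set were highest for Zar1 (339 ± 24, SD) and Btg4 (316 ± 38.5). Cpeb1 (272 ± 7.47) and Zar1l (266 ± 19.6) came next, followed by a step down to Dazl (119 ± 8.22), Ybx2 (118 ± 8.65) and Cnot7 (113 ± 13.8). Pabpc1l (90.03 ± 5.67), Cnot6l (73.2 ± 4.56) and Zfp36l2 (4.55 ± 0.632) stood lowest.

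Neighbours in this order differed by more than the sum of their SDs between Zar1l and Dazl, Cnot7 and Pabpc1l, Pabpc1l and Cnot6l, and Cnot6l and Zfp36l2. The other neighbours did not. Among 41559 genes ranked by this level in oocytes of the second set, the 9 abundant members held ranks from 93 to 675, and Zfp36l2 held rank 8197. Over the 11 mouse labels of the first set, Btg4 (306 ± 57.2) and Zar1 (305 ± 56.0) were highest in CPM per kilobase, and only the step from Cnot6l (75.2 ± 7.09) to Zfp36l2 (5.74 ± 0.916) was larger than the spread of both.

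**Figure D1:**
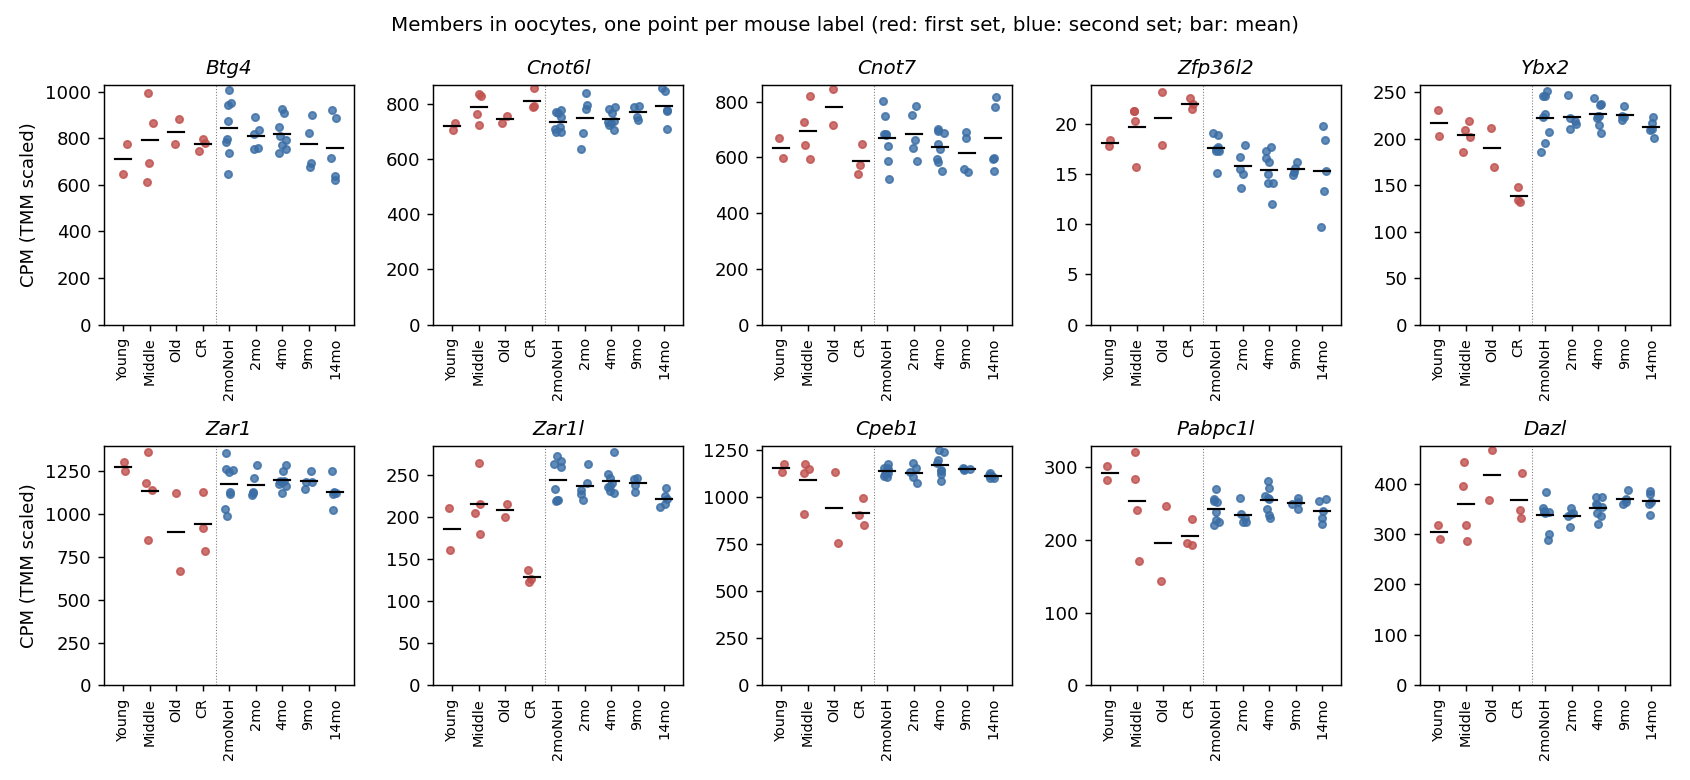
Levels of the 10 genes in oocytes, in CPM, for each mouse label (points) by group, with red for the first set, blue for the second set and bars for group means. Ybx2 and Zar1l of the 3 CR labels lie below every Middle label, and the groups of the second set overlap in nearly all panels.

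The contrast with cumulus cells separated germ cell genes from general ones. Btg4, Ybx2, Zar1, Zar1l, Cpeb1, Pabpc1l and Dazl were abundant in oocytes and all but absent from cumulus pools. Cnot6l and Cnot7 were present in both cell types and higher in oocytes. Zfp36l2 alone was higher in cumulus cells, in both sets.

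In oocytes of the second set, Btg4 ranged from 620.1 to 1009 CPM over 30 mice, Zar1 from 990.3 to 1361 CPM and Cpeb1 from 1071 to 1246 CPM. In the cumulus pools of the same mice, Btg4 had 23 counts in all, found in 17 of 128 libraries, Zar1 had 54 in 38 libraries and Cpeb1 had 59 in 34 libraries. Pabpc1l was the germ cell gene most often seen in cumulus pools of this set, with 226 counts in 90 libraries, at a mean of 2.08 ± 1.12 CPM (SD, n = 30). In the first set it was seen in 18 of 71 cumulus libraries, against 33 for Zar1 and 33 for Dazl. No mouse had a cumulus level near an oocyte level for these genes.

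As ratios of the summed counts in the second set, with exact Poisson 95% intervals, Btg4 was 3841-fold higher in oocytes (2560.1 to 6060), Zar1 2393-fold (1834 to 3186) and Cpeb1 2122-fold (1645 to 2787). Dazl was 675-fold higher (521 to 892), Ybx2 660.4-fold (479 to 938) and Pabpc1l 119-fold (104 to 136). Zar1l had 63558.5 counts in oocytes and 0 in 128 cumulus libraries, which made it at least 8763-fold higher, with a floor of 3 counts over the group. In the first set, where 71 cumulus libraries were measured, the ratios ran from 413 (306 to 570.3) for Zar1l to 2477 (1832 to 3436) for Cpeb1 over these 7 genes. Zar1 there was 460.4-fold higher (405 to 525). The cumulus counts behind these ratios were uneven. Of 237 counts of Zar1, 117.5 were in CR3 and 69.5 in Young2, with single pools up to 48.8 and 29.1 CPM, and of 43 counts of Zar1l, 18 and 20, with pools up to 8.65 and 13.8 CPM. The ratios without these pools were not computed, and the intervals do not cover such differences between pools.

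The deadenylase genes differed far less between the cell types. Cnot6l ranged from 637 to 856 CPM in oocytes and from 92.3 to 198 CPM in cumulus pools of the second set, and Cnot7 from 523 to 818 CPM and from 118 to 233 CPM. Neither gene overlapped between the cell types over the 30 mice. Zfp36l2 ranged from 9.69 to 19.8 CPM in oocytes and from 106 to 274 CPM in cumulus pools, again without overlap, and the first set had it at 15.7 to 23.2 CPM and 66.1 to 165 CPM.

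With the mouse as a block, edgeR's quasi-likelihood test with Benjamini-Hochberg adjustment called 10 of 10 members in the first set, against 24806 of 34628 genes (71.6%). Of these members 9 were higher in oocytes, against 37.7% of all genes. For the second set it called 10 of 10 against 26809 of 35521 genes (75.5%), again with 9 higher, against 35.9%. Most genes differed between these cell types, so the number of members called is not far from the background. The fitted log2 difference was 3.60 ± 0.11 (SE) for Cnot6l, 2.84 ± 0.12 for Cnot7 and −1.63 ± 0.13 for Zfp36l2 in the first set. It was 3.11 ± 0.06, 2.56 ± 0.05 and −2.76 ± 0.06 in the second set, in the same order. The median fitted log2 difference was 10.18 over the members and 0.01 over all genes in the first set, and 9.84 and −0.21 in the second, and values of genes without cumulus counts in a group depend on the prior count of the fit. Without the block, 10 of 10 members were called in both sets, with 26089 and 27707 genes.

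The nearest relatives of the members divided between the cell types. In cumulus pools Cnot6, the paralog of Cnot6l, reached 73.4 ± 16.7 CPM per kilobase (SD, n = 30), against 5.49 ± 0.616 in oocytes, where Cnot6l led. Pabpc1, the general poly(A)-binding protein, had 102 ± 9.41 in cumulus pools and 3.52 ± 0.842 in oocytes, where Pabpc1l had 90.03 ± 5.67. Cnot8, the paralog of Cnot7, had 73.03 ± 3.61 in oocytes and 20.3 ± 3.26 in cumulus pools.

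Among Y-box genes, Ybx3 was at 65.2 ± 3.30 CPM per kilobase in oocytes and 13.7 ± 2.62 in cumulus pools, and Ybx1 at 33.3 ± 2.70 and 82.5 ± 15.9. Both were below Ybx2 in oocytes. Zfp36 and Zfp36l1, the relatives of Zfp36l2, were at 1.16 ± 0.261 and 0.202 ± 0.0941 in oocytes and at 62.3 ± 23.8 and 30.6 ± 8.03 in cumulus pools. Each of these 3 genes was thus lower in oocytes, and Zfp36l2 was the most abundant of the 3 there.

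In the CPEB family, Cpeb3 was at 17.4 ± 1.35 CPM per kilobase in oocytes and 0.504 ± 0.262 in cumulus pools, and Cpeb4 at 24.1 ± 1.67 and 8.13 ± 1.45, both below Cpeb1 in oocytes. Cpeb2 was the reverse, at 0.627 ± 0.145 and 6.92 ± 1.87. Btg1, Btg2 and Btg3 were all higher in cumulus pools, where Btg2 reached 119 ± 54.7. By edgeR's quasi-likelihood test with Benjamini-Hochberg adjustment, all 13 relatives were called in both sets, with Cnot8, Ybx3, Cpeb3 and Cpeb4 higher in oocytes. The fitted log2 differences in the second set ran from −6.64 for Zfp36l1 to 5.75 for Cpeb3.

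**Figure D2:**
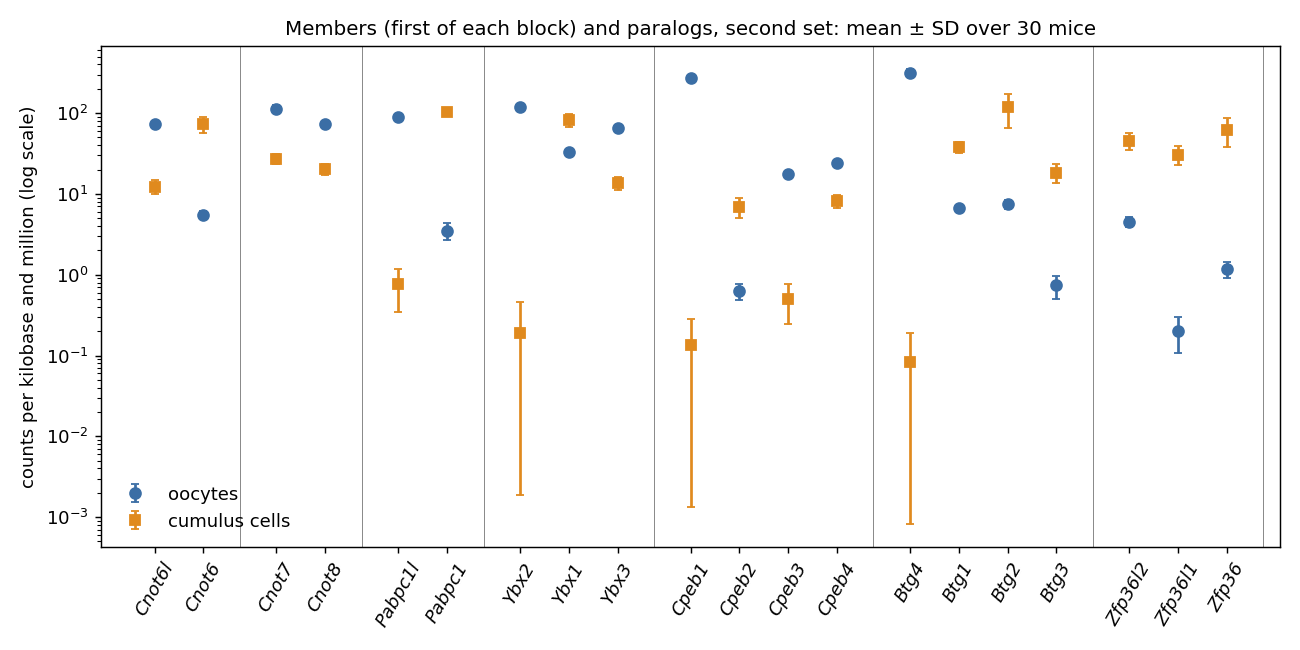
Mean level in CPM per kilobase on a log axis, with SD over 30 mice, of members and their paralogs in oocytes (blue circles) and cumulus pools (orange squares) of the second set. Cnot6l and Pabpc1l lead their pairs in oocytes, and Cnot6 and Pabpc1 lead them in cumulus pools.

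Of 86 other genes of the same pathways, in 9 lists, 55 were higher and 26 lower in oocytes of the first set, with a median log2 difference of 1.17 against 0.01 over all genes tested, and 53 and 32 in the second set, with medians of 0.85 and −0.21. All 7 genes of the PAN2-PAN3, PARN and other deadenylase list were higher in oocytes in both sets, and all 3 genes of terminal uridylation (Tut4, Tut7 and Dis3l2) were lower. By list in the second set, CCR4-NOT and its adaptors had 9 higher and 5 lower, decapping 4 and 3, and readers of AU-rich or m6A sites 4 and 5. Cytoplasmic polyadenylation had 6 and 5, poly(A)-binding proteins 5 and 2, cap binding 5 and 3, and storage particles and germline RNA-binding proteins 13 and 6.

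The 6 genes with the largest fitted sizes among those called in the first set, with a mean of at least 10 CPM, are named here. Eif4e1b, an oocyte form of the cap-binding protein, had a fitted log2 difference of 11.30 ± 0.35 (SE) in the first set. Mael and Ddx4, germline RNA factors, had 12.27 ± 0.32 and 9.52 ± 0.26, and Igf2bp2, an mRNA-binding protein, had 13.01 ± 0.24. Patl2, a repressor of translation in oocytes, had 10.86 ± 0.27, and Pabpn1l, a partner of BTG4 on poly(A) tails, had 10.83 ± 0.25. In the second set Eif4e1b had 14.12 ± 0.13 and Ddx4 10.31 ± 0.19. Where cumulus counts are at or near 0, such fitted sizes depend on the prior count and are not bounds.

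Age was compared over the Young, Middle and Old oocytes of the first set. Levels of the 10 genes did not pass the test between any of these groups. Storage genes Pabpc1l, Zar1 and Cpeb1 had their lowest values in Old1_2, and Dazl its highest value there. The other Old label, Old3, lay inside the range of the Middle mice for these genes. For Zar1 that range reached below Old3 only through Middle3, which had 1 oocyte.

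Pabpc1l stood at 302 and 283 CPM in Young, at 321, 242, 171 and 284 CPM in Middle and at 144 and 247 CPM in Old. Dazl stood at 291 and 319 CPM in Young, at 286, 395, 442 and 318 CPM in Middle and at 466 and 367 CPM in Old. Zar1 stood at 1251 and 1307 CPM in Young, at 1366, 1144, 850.0 and 1182 CPM in Middle and at 668 and 1122 CPM in Old. Young and Old did not overlap for these genes, nor for Cpeb1, Btg4, Cnot6l and Cnot7, with 2 labels in each group, where chance alone gives this in 2 of 6 ways of dividing the labels. The same held for 50.1% of 8984 genes with a mean of at least 10 CPM. Cpeb1 stood at 1173 and 1133 CPM in Young and at 755 and 1130.2 CPM in Old, and its lowest value of the set was also in Old1_2. The Middle mice overlapped both Young and Old in all 10 genes. Middle3, with 1 oocyte, gave the lowest Middle values of Pabpc1l (171 CPM) and Zar1 (850.0 CPM) and the highest of Dazl (442 CPM). The label Old1_2 also had the highest sum of the 12 cumulus markers, 959 CPM, against 538 in Old3, 511 and 448 in Young and 387 to 761 in Middle, led by Bmpr1b. The median share of mitochondrial counts per oocyte was 0.988% in Old, with a maximum of 6.75%, and 0.562% in Young, with a maximum of 5.31%. In the summed counts of a label this share was 1.65% in Old1_2, 0.656% in Old3 and 0.659% and 0.782% in Young. With the cumulus marker share as a covariate, log2 differences of Old against Young were −0.45 for Zar1, −0.61 for Pabpc1l and 0.55 for Dazl. None of these passed the test. The part of the mitochondrial counts in these values was not tested.

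For Old against Young, edgeR called 0 of 10 members and 0 of 29104 genes (0%). At an unadjusted p under 0.05 there were 2 members and 2741 genes (9.42%), and DESeq2 called 0 members and 8 genes. The 2 members were Pabpc1l, with a log2 difference of −0.58 (95% interval −1.15 to −0.02) and an adjusted p of 0.525, and Dazl, with 0.45 (0.00 to 0.90) and 0.528, by edgeR's quasi-likelihood test with Benjamini-Hochberg adjustment. Zar1 had −0.52 (−1.05 to 0.02), and Cnot6l had the value nearest to 0, 0.05 (−0.26 to 0.36). The median over the members was 0.11, against 0.04 over all genes.

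For Middle against Young, edgeR called 0 of 10 members and 0 of 29104 genes (0%), with 0 members and 929 genes (3.19%) at an unadjusted p under 0.05 and 0 members by DESeq2. Members ran from −0.20 for Pabpc1l to 0.24 for Dazl, with intervals that reached from −0.68 to 0.63. For Old against Middle it called 0 of 10 and 0 of 29104 genes (0%), with 0 members and 1427 genes (4.90%) at an unadjusted p under 0.05 and 0 members by DESeq2. There the values ran from −0.39 for Pabpc1l to 0.21 for Dazl. These comparisons share their groups, and a p that misses the threshold does not show that levels were the same.

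The second set had more mice and a narrower spread, and its differences with age were small for all 10 genes. In the comparisons made, of each older group with 2mo and of 14mo with 9mo, log2 differences lay between −0.15 and 0.14, and the 95% intervals reached from −0.37 to 0.34. Dazl, the translational activator, was above the 2mo range in all 9mo mice and in all but 1 of the 14mo mice. None of the members passed the test.

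Dazl stood at 313, 336, 340.4, 341 and 352 CPM in the 5 mice of 2mo, from 320.0 through a median of 355 to 373 CPM in the 8 mice of 4mo, at 359.6, 364, 369 and 387 CPM in 9mo and at 338, 359, 363, 379 and 385 CPM in 14mo. The 2mo and 9mo mice did not overlap, and 1 mouse of 14mo lay within the 2mo range. The share of all genes without overlap between groups was not computed in the second set. In the 2moNoH mice of the same age as 2mo, Dazl reached from 288 to 384 CPM, which covers nearly all of these values. Pabpc1l stood from 225 through 229.9 to 257 CPM in 2mo, from 230.2 through 257 to 282 CPM in 4mo, from 242 through 251 to 258 CPM in 9mo and from 222 through 239.6 to 256 CPM in 14mo, and its groups overlapped. Cpeb1 stood from 1140.2 through 1147 to 1154 CPM in 9mo and from 1098 through 1112 to 1126 CPM in 14mo, without overlap, at a log2 difference of −0.05 (95% interval −0.13 to 0.03). The 2mo and 4mo mice covered both ranges. Zar1l, lowest at 14 months by its median, stood from 220.4 through 232 to 263 CPM in 2mo and from 212 through 221 to 235 CPM in 14mo, with overlap.

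Among decay genes, the medians of Btg4 were 816 CPM in 2mo, 801 in 4mo, 759 in 9mo and 717 in 14mo, and its 14mo mice spread from 620.1 to 923 CPM around the 2mo range of 756 to 890.2 CPM. Cnot6l had medians of 784, 738, 771 and 777 CPM in the same order, and Cnot7 664, 638, 614 and 599 CPM. The means of Cnot7 were 685, 636, 617 and 669 CPM, and its log2 difference of 14mo against 9mo was 0.12 (−0.10 to 0.34). Zfp36l2 had medians of 15.5, 15.6, 15.4 and 15.3 CPM. The ranges of all 4 decay genes overlapped between every pair of these ages.

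For 4mo against 2mo, edgeR called 0 of 10 members and 0 of 28123 genes (0%). It had 1 member at an unadjusted p under 0.05, against 4.81% of all genes, Pabpc1l with a log2 difference of 0.12 (0.01 to 0.22), and DESeq2 called 0 members. For 9mo against 2mo it called 0 of 10 members against 15 of 28123 genes (0.0533%), with 1 member at an unadjusted p under 0.05, against 6.31% of all genes, Dazl with 0.14 (0.02 to 0.25), and 0 by DESeq2. For 14mo against 2mo it called 0 of 10 members against 54 genes (0.192%), with Dazl again the 1 member at an unadjusted p under 0.05, against 9.46% of all genes, at 0.12 (0.00 to 0.23), and 0 by DESeq2. These 3 comparisons share the 2mo mice. For 14mo against 9mo it called 0 of 10 members against 1 gene (0.00356%), with 0 members at an unadjusted p under 0.05, against 5.09% of all genes, and 0 by DESeq2. The medians over members were 0.03, 0.02, −0.03 and −0.04 in this order, against 0.01, 0.00, 0.00 and 0.00 over all genes.

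Of the 86 other pathway genes, 1 passed the test in any of these age comparisons. Xrn1, the exonuclease that degrades decapped mRNA from its 5′ end, rose from 2mo to 14mo by a log2 difference of 0.37 ± 0.08 (SE), with an adjusted p of 0.0395 by edgeR's quasi-likelihood test with Benjamini-Hochberg adjustment. Over all genes 54 of 28123 (0.192%) were called in that comparison. At an unadjusted p under 0.05 there were 11 of the 86, against 2661 of all genes (9.46%). Among oocytes of the first set 10 of 86 reached an unadjusted p under 0.05 for Old against Young, against 9.42% of all genes, with 0 called.

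For calorie restriction, 2 of the 10 members passed the test in oocytes, against 7.10% of all genes. Its effect was not tested against those of age or hyperovulation. Zar1l and Ybx2, which both bind stored mRNA, fell in oocytes of CR mice compared with AL mice of the same age. The other 8 members, decay genes included, did not pass the test. Their log2 differences ran from −0.31 for Pabpc1l to 0.17 for Zfp36l2.

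Zar1l stood at 179.6, 216, 264 and 204 CPM in the 4 Middle mice and at 123, 126 and 137 CPM in the 3 CR mice. Ybx2 stood at 209.9, 219.6, 186 and 202 CPM in Middle and at 132, 135 and 148 CPM in CR. For both genes every CR mouse was below every Middle mouse, and also below both Young labels (161 and 210.4 CPM for Zar1l, 203 and 231 CPM for Ybx2) and both Old labels (201 and 216 CPM, 169 and 211 CPM). The share of all genes without overlap between CR and Middle mice was not computed. Group means were 216 ± 35.4 CPM (SD, n = 4) and 129 ± 7.17 (n = 3) for Zar1l, and 204 ± 14.3 and 138 ± 8.96 for Ybx2.

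Zar1, the relative of Zar1l, stood at 1366, 1144, 850.0 and 1182 CPM in Middle and at 787, 917 and 1129 CPM in CR, with overlap. That overlap rested on Middle3, at 850.0 CPM, which had 1 oocyte. Cnot7 stood at 596, 726, 819.9 and 643 CPM in Middle and at 649.7, 539 and 571 CPM in CR, also with overlap. Btg4 had group means of 791 ± 171 CPM in Middle and 774 ± 27.4 CPM in CR, and Dazl 360.4 ± 71.2 and 367 ± 47.3 CPM. Their groups overlapped as well.

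The log2 difference of CR against Middle was −0.74 for Zar1l (SE 0.15, 95% interval −1.06 to −0.43) with an adjusted p of 0.00781, and −0.57 for Ybx2 (SE 0.13, −0.84 to −0.30) with an adjusted p of 0.0149, by edgeR's quasi-likelihood test with Benjamini-Hochberg adjustment. These 2 of 10 members were called against 2067 of 29104 genes (7.10%). Both were lower, against 814 genes called lower (2.80%). At an unadjusted p under 0.05 there were 2 members and 6219 genes (21.4%). DESeq2 called 2 members and 3343 genes, and the members had a median log2 difference of −0.25, against 0.02 over all genes. Over the other 8 members, Cnot6l had 0.04 (−0.20 to 0.28) and Cnot7 −0.25 (−0.54 to 0.05), so that a fall of Cnot7 of that size could not be told from none.

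The calls for Zar1l and Ybx2 were lost when the left-out complex of Middle3 was put back. Their log2 differences were then −0.51 and −0.36, with adjusted p of 0.112 and 0.394 by edgeR's quasi-likelihood test with Benjamini-Hochberg adjustment, the highest over all alternatives, which went down to 9.30e-11 and 1.87e-08. These alternatives include the fit on single libraries, which treats oocytes of the same mouse as independent. The oocyte-labelled library that was put back had 26.8 CPM of Zar1l and 4.08 CPM of Ybx2. Without CR1, CR2 or Middle2 the call for Ybx2 was lost, with adjusted p of 0.0752, 0.0763 and 0.0554 in the same test, and its log2 difference stayed between −0.62 and −0.53. Zar1l was called without each mouse in turn.

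CR libraries also differed in other measures. They were deeper than Middle libraries (above), and their median share of mitochondrial counts was 0.961% against 0.666%. The 12 cumulus markers summed to 719.5, 719 and 509 CPM in CR1, CR2 and CR3 and to 704, 487, 387 and 761 CPM in Middle1 to Middle4, led by Bmpr1b. Slc38a3 was at 0 in CR1 and CR2, and Foxl2, Fshr and Slc38a3 were at 0 in Middle3. Without the 11 oocytes of the first set that had more than 1000 CPM of these markers, an alternative chosen after seeing the data, 3 of 10 members were called, the third being Cnot7 at a log2 difference of −0.41. In the deposited RPKM values, 7.46% of CR values lay within 1% of counts over length, against 100% of AL values, so the CR values of RPKM do not follow from these counts as the AL values do, and what this means for the CR counts was not tested.

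**Figure D3:**
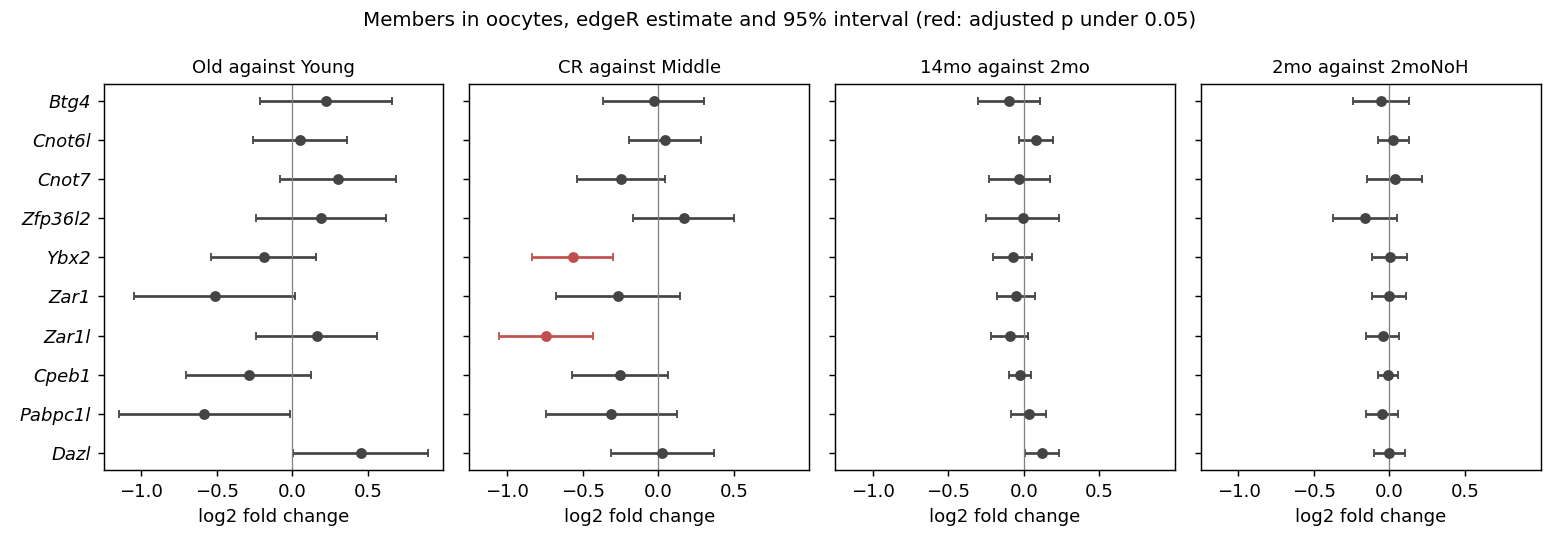
Log2 differences of the 10 genes in oocytes with 95% intervals from edgeR, for Old against Young, CR against Middle, 14mo against 2mo and 2mo against 2moNoH, with red for an adjusted p under 0.05. Zar1l (−0.74) and Ybx2 (−0.57) under CR are the red points, and intervals are narrower in the second set.

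Of the 86 other pathway genes, 11 rose and 2 fell in CR oocytes, with a median log2 difference of 0.11, against 0.02 over all genes. Of all genes tested, 1253 were called higher and 814 lower, so that 60.6% of the calls were higher, and 47.4% with total counts in place of TMM. The readers of AU-rich or m6A sites had 4 of 9 higher, with a median of 0.32, and storage particles and germline RNA-binding proteins had 3 of 19 higher and 1 lower, with a median of 0.29. CCR4-NOT and its adaptors had 2 of 14 higher, decapping 1 of 8, uridylation 1 of 3, and cytoplasmic polyadenylation 1 of 11 lower. The lists of other deadenylases, poly(A)-binding proteins and cap binding had 0 called by edgeR.

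Xrn1 rose by a log2 difference of 1.15 ± 0.14 (SE), with an adjusted p of 0.000443 by edgeR's quasi-likelihood test with Benjamini-Hochberg adjustment. Ddx4, a germline helicase, rose by 1.02 ± 0.18, and Ddx6, a helicase of storage and decay particles, by 0.86 ± 0.15. Ythdc2 and Ythdf1, which bind m6A, rose by 0.95 ± 0.14 and 0.89 ± 0.14. Msi2, a Musashi protein that regulates translation, fell by 1.16 ± 0.26 on the log2 scale.

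With hyperovulation, no member passed the test in oocytes. The groups 2mo and 2moNoH, of the same age, overlapped for each gene. Zfp36l2, the AU-rich element reader, had the largest log2 difference in size, −0.16, and its interval included 0. Zar1, Ybx2 and Dazl had differences of 0.00 to 2 decimals.

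Zfp36l2 stood from 15.1 through a median of 17.6 to 19.1 CPM in the 8 mice of 2moNoH and from 13.6 through 15.5 to 17.9 CPM in the 5 mice of 2mo. Ybx2 stood from 186 through 225 to 252 CPM in 2moNoH and from 211 through 219 to 247 CPM in 2mo. Btg4 stood from 647 through 834 to 1009 CPM and from 756 through 816 to 890.2 CPM. For Ybx2 and Btg4, the 2mo mice lay inside the range of the 2moNoH mice.

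For 2mo against 2moNoH in oocytes, edgeR called 0 of 10 members and 0 of 28123 genes (0%). It had 0 members and 1242 genes (4.42%) at an unadjusted p under 0.05, and DESeq2 called 0 members. The 95% intervals of the members reached from −0.37 to 0.22, and the narrowest was that of Cpeb1, −0.08 to 0.05. The median over members was −0.01, against 0.00 over all genes, and 0 of the 86 other pathway genes were called by edgeR, with 4 at an unadjusted p under 0.05.

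In cumulus cells, the 3 members with steady expression, Cnot6l, Cnot7 and Zfp36l2, carry the comparison, and the 7 germ cell genes were near the limit of detection. Zfp36l2 was lower in Old than in Young pools, without overlap, yet did not pass the test over all genes. With 2 labels in each group, lack of overlap arises readily by chance (above). The share of all genes without overlap was not computed in cumulus pools. Cnot7 had a higher median with hyperovulation, and did not pass either. With all groups of a set in the fit and the mouse label as replicate, no member was called in cumulus cells by edgeR or DESeq2. This held in the 4 comparisons made, Old against Young, 14mo against 2mo, CR against Middle and 2mo against 2moNoH.

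Zfp36l2 stood at 165 and 160.1 CPM in Young, at 110.0, 69.8, 90.2 and 107 CPM in Middle, at 98.8 and 94.1 CPM in Old and at 66.1, 113 and 159 CPM in CR. Both Young labels were above all AL mice of 9 and 14 months, and the CR mice spread over the whole range. For Old against Young, edgeR called 0 of 10 members against 6 of 28594 genes (0.0210%), with 1 member at an unadjusted p under 0.05, against 3.68% of all genes, and 0 by DESeq2. That member was Zfp36l2, with a log2 difference of −0.75 (95% interval −1.41 to −0.09). It was called in 2 of 9 alternatives, the 2 groups alone and single libraries, with adjusted p of 0.000358 and 0.0249 by edgeR, and 0.871 to 1 in the others. Middle against Young was not tested in cumulus cells. In the second set, Zfp36l2 had medians of 149.8 CPM in 2mo and 133 CPM in 14mo, with overlap and a log2 difference of −0.27 (−0.63 to 0.09).

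For CR against Middle in cumulus cells, edgeR called 0 of 10 members against 22 genes (0.0769%), with 2 members at an unadjusted p under 0.05, against 9.94% of all genes, and 0 by DESeq2. These were Ybx2 and Btg4, both at the edge of detection. Ybx2 had 1 count over the 15 Middle libraries, which left 0 in each mouse after rounding, and reached 0.162, 0.283 and 0.453 CPM in the CR mice. Btg4 had 1 count in the 15 Middle pools and 36 in the 25 deeper CR pools, of which 31 were in mouse CR3, where its highest pool was at 12.4 CPM. The 13 oocyte markers summed to at most 34.3 CPM in a Middle pool and to at most 367 CPM in a CR pool, and their part in these values was not tested. These levels stand beside 138 CPM of Ybx2 and 774 CPM of Btg4 in CR oocytes.

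For 14mo against 2mo, edgeR called 0 of 9 members tested in cumulus cells against 23 of 29491 genes (0.0780%), with 0 at an unadjusted p under 0.05, against 7.50% of all genes, and 0 by DESeq2. For 2mo against 2moNoH it called 0 of 9 against 492 genes (1.67%), with 1 at an unadjusted p under 0.05, against 14.4% of all genes, and 0 by DESeq2. Zar1l had no count and was not tested. Cnot7 stood from 118 through 153 to 166 CPM in 2moNoH and from 143 through 165 to 233 CPM in 2mo, with overlap and a log2 difference of 0.26 (0.04 to 0.47). Of the other pathway genes, Cnot10, a CCR4-NOT subunit, fell with hyperovulation by 0.41 ± 0.11 on the log2 scale, the 1 of 83 that passed. For Old against Young and for CR against Middle edgeR called 0 of 84 of these genes, with 3 and 6 at an unadjusted p under 0.05, against 3.68% and 9.94% of all genes, and for 14mo against 2mo 0 of 83, with 6, against 7.50%.

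Whether the effects differed between the cell types was tested by an interaction, with the mouse as a block. For CR, 0 of 10 members passed in edgeR against 221 of 34628 genes (0.638%), with 2 members at an unadjusted p under 0.05, Ybx2 and Cnot6l, against 10.7% of all genes, and 0 by DESeq2. Cnot6l had a difference of 0.58 (95% interval 0.07 to 1.10) between its effect in oocytes and that in cumulus cells. Ybx2 had an adjusted p of 0.189 by edgeR's quasi-likelihood test with Benjamini-Hochberg adjustment, and its fitted size rests on a cumulus group at 0. Zar1l had −2.68 (−6.06 to 0.70). Both genes had 1 count over the Middle cumulus pools, so there was no cumulus level that could fall, and the test does not tell whether their fall under CR is particular to oocytes.

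Among the other pathway genes, 5 of 86 differed between the cell types under CR, all higher in oocytes relative to cumulus cells, and the median over the 86 was 0.32, against 0.18 over all genes. Of the 221 genes called, 199 were higher in this sense (90.05%). With total counts in place of TMM this share was 54.9% and the median over all genes −0.08, and with RLE factors they were 59.0% and −0.06. Xrn1 had a difference of 1.62 ± 0.26 (SE), Cnot6 1.43 ± 0.30, Cnot2 1.30 ± 0.26, Ddx6 1.29 ± 0.27 and Ythdc2 1.26 ± 0.28. For hyperovulation, 0 of the 9 members with cumulus counts passed in edgeR against 200 of 35521 genes (0.563%), with 1 at an unadjusted p under 0.05, Dazl at −1.59 (−3.07 to −0.11), against 7.03% of all genes, and 0 by DESeq2. Zar1l, at 0 in all cumulus libraries of this set, could not pass and is left aside. Dazl had 8 counts in the cumulus pools of 2moNoH and 20 in those of 2mo. Of the other genes 1 of 86 passed, Btg2 with 0.99 ± 0.24. Without the block, no member was called in either interaction, with 266 genes for CR and 126 for hyperovulation.

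Single oocytes of the same mouse differed more in the first set than in the second. The SD of log2(CPM + 1) between oocytes of a mouse was, in the second set, lowest for Cpeb1 (0.101) and Zar1 (0.112) and highest for Zfp36l2 (0.352). The median over 8788 genes with a mean of at least 10 CPM was 0.226, and 98.7% of these genes varied more than Cpeb1. Values in the first set ran from 0.240 for Cnot6l to 0.649 for Zfp36l2, against a median of 0.377 over 9034 genes. Zfp36l2 had a median of 33.5 counts per oocyte in the second set, so that counting error weighs more in its spread than in that of the others.

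Across oocytes, values were centred per mouse and correlated as a description, over 73 oocytes (the first set) and 127 oocytes (the second set). The storage genes Zar1 and Pabpc1l varied together (r = 0.82, rho = 0.75 in the first set, r = 0.56, rho = 0.50 in the second), as did Cpeb1 and Pabpc1l (0.71 and 0.71, 0.54 and 0.40). The decay genes Btg4 and Cnot7 varied together as well (0.77 and 0.70, 0.66 and 0.63), and so did Cnot6l and Cnot7 (0.62 and 0.65, 0.48 and 0.44). Within a mouse, oocytes with more Btg4 thus tended to have more Cnot7, and those with more Zar1 more Pabpc1l.

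Other pairs ran in opposite directions, and the signs did not follow the roles throughout. Btg4 and Pabpc1l had r = −0.47 and rho = −0.47 over the first set, then −0.59 and −0.56 over the second. Cnot7 and Pabpc1l had −0.68 and −0.66, then −0.53 and −0.47, and Btg4 and Zar1 −0.44 and −0.41, then −0.50 and −0.52. Of pairs within storage and translation, Pabpc1l and Dazl had the lowest r of all pairs in the first set (−0.73 and −0.70, then −0.27 and −0.18), and Cpeb1 and Dazl had −0.54 and −0.52, then −0.40 and −0.29. Zar1l, a storage gene, varied with the decay gene Btg4 (0.54 and 0.50, 0.34 and 0.33) and Cnot7 (0.41 and 0.38, 0.28 and 0.27), and against its relative Zar1 (−0.16 and −0.13, −0.23 and −0.21) and Pabpc1l (−0.37 and −0.34, −0.23 and −0.18). Dazl, counted with storage and translation, varied with Btg4 (0.59 and 0.48, 0.17 and 0.21), Cnot6l (0.37 and 0.48, 0.23 and 0.23) and Cnot7 (0.79 and 0.74, 0.17 and 0.10), with lower values in the second set each time. Over all 45 pairs, 23 were above 0 over the first set, 24 over the second.

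These points share their library, its depth and its RNA quality. In the first set Cpeb1 had r = −0.88 with the share of mitochondrial counts, 0.62 with the log10 of depth and −0.65 with the log2 of the cumulus markers, and Pabpc1l had −0.51, 0.35 and −0.56. Zfp36l2 had −0.67, 0.49 and −0.10 in the same order. Over the second set no member passed 0.37 in size with any of these 3 measures, as Pabpc1l and Zar1 reached −0.37 with the cumulus markers. The part of these measures in the correlations was not tested.

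**Figure D4:**
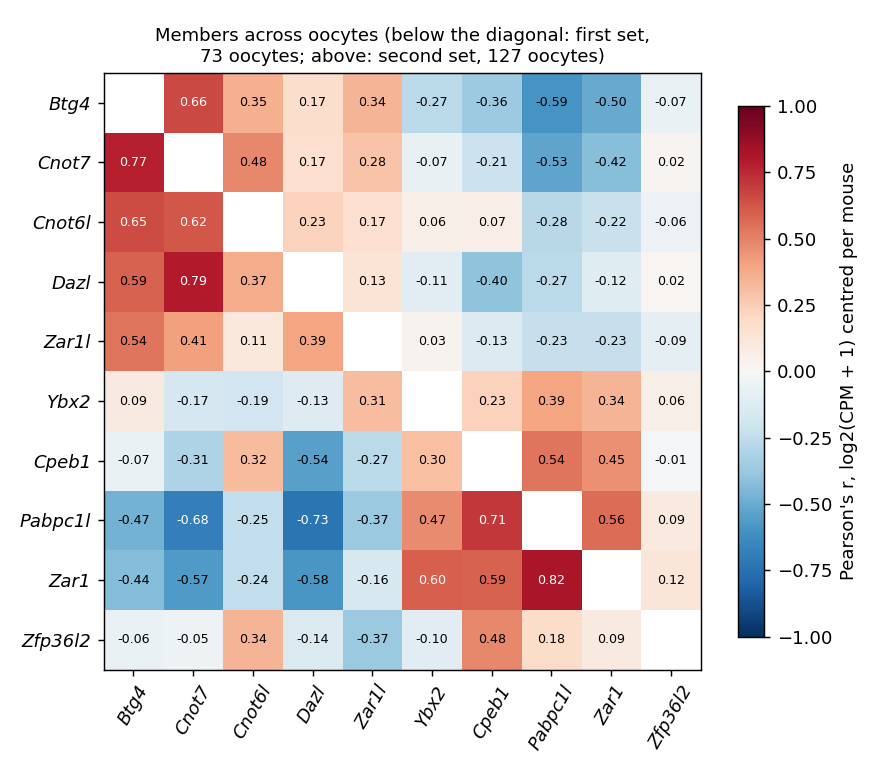
Pearson r between the 10 genes over single oocytes, on log2(CPM + 1) centred per mouse, with 73 oocytes of the first set below the diagonal and 127 of the second set above it. Zar1 with Pabpc1l (0.82 and 0.56) and Btg4 with Cnot7 (0.77 and 0.66) are high in both, and Btg4 with Pabpc1l (−0.47 and −0.59) is low in both.

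Genes outside these lists were ranked by how closely they followed the mean standardized log2 CPM of the members over mouse labels of the first set. With 11 labels and 8875 genes, the closest 5 were Gm38056 (r = 0.938), Clec10a (0.932), Degs1 (0.915), Arl8a (0.913) and Tcl1 (0.912).

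Sequence elements that govern stored mRNA were looked for in the last 150 bases of the 3′UTR, in the 8 members whose annotated 3′UTR is that long. In the annotated transcript used, 1 per gene, Zar1 and Zar1l end too soon after the stop codon, with 146 and 14 bases. The annotated genes of Zar1 and Cnot7 reach further downstream than these transcripts, and other ends were not searched. The cytoplasmic polyadenylation element TTTTAT or TTTTAAT was found in 3 of 8, Btg4, Cnot7 and Ybx2, against 23.5% of 18287 mRNAs. The polyadenylation signal AATAAA or ATTAAA was found in 6 of 8, against 80.3%, the AU-rich core ATTTA in 4 of 8, against 29.6%, and the Pumilio element TGTANATA in 0 of 8, against 5.99%.

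The windows around the cytoplasmic polyadenylation element are shown because this element marks mRNAs that CPEB1, the product of a member, can bind. They come from GENCODE transcripts on GRCm38, at chr9:51119797-51119826 (plus strand) for Btg4, chr8:40493036-40493065 (minus) for Cnot7 and chr11:69941532-69941561 (plus) for Ybx2, and begin 79, 30 and 74 bases before the transcript's end. Capitals mark TTTTAT and, in Cnot7, also AATAAA. The last 150 bases hold 2 matches to the cytoplasmic polyadenylation element in Btg4, 3 in Cnot7 and 1 in Ybx2, and 1 per gene is shown. A match is a description and not a tested site.
Btg4: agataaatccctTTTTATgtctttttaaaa
Cnot7: ttaaggtacaTTTTATatcAATAAAaatac
Ybx2: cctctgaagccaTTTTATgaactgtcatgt

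Promoters of 300 bases were available from RefSeq (GRCm38.p6) for 8 members, and Cnot7 and Zfp36l2 had no entry. Where a gene had more than 1 entry, the first in the file was taken. On both strands, the E-box CANNTG was found in 7 of 8, against 72.1% of 27025 promoters, the homeobox motif TAATTG in 1 of 8, against 8.15%, and the TATA box TATAAA in 1 of 8, against 14.2%. The promoters of Zar1l (chr5:150518110-150518409, minus strand) and Ybx2 (chr11:69935649-69935948, plus strand, the first of 2 entries) are shown because these are the 2 members that fell under CR. Capitals mark CANNTG.
Zar1l: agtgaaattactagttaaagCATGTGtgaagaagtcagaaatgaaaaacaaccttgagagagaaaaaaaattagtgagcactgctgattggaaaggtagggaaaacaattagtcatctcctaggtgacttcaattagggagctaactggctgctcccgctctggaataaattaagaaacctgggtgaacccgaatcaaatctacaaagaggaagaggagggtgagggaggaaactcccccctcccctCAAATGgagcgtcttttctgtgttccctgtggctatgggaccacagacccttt
Ybx2: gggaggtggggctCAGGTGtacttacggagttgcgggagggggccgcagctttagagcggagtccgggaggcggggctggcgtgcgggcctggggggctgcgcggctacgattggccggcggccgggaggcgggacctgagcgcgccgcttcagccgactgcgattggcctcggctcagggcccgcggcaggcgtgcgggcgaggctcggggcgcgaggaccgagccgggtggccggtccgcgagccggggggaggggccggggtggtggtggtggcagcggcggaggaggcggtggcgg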

How the data were processed

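Per the labels, each library is a single oocyte or the cumulus pool of the same complex, sequenced by RamDA-seq. The authors aligned reads with HISAT2 2.0.5 and counted them with featureCounts 1.5.1 on GENCODE annotation of GRCm38. The deposited counts were handled like expected counts, which need not be whole: 36.8% (first set) and 35.1% (second set) of the values above 0 are not whole numbers; they were rounded after summing. The deposited RPKM were used as a check only; levels per length were computed from counts and gene lengths. Of 43633 gene IDs, 43512 matched the annotation used for positions.

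Counts were summed per mouse label and cell type. Genes were kept when 5 or more libraries had a count, scaled by TMM and tested with edgeR 4.0.16 in R 4.3.3, by quasi-likelihood F tests with Benjamini-Hochberg adjustment over all genes and a threshold of 0.05, in 17 comparisons. Fits of a single cell type used estimateDisp and glmQLFit. Fits of both cell types used glmQLFit with legacy=FALSE, without estimateDisp, and the mouse as a block, since the labels give the same mouse for both cell types. The code was tested on simulated data. Python 3.11.15, pandas 2.3.3, numpy 2.4.6 and matplotlib 3.10.9 did the rest. The authors also used edgeR with TMM; single libraries as replicates are an alternative here.

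Alternatives were DESeq2 1.42.0, RLE size factors, total counts with and without mitochondrial genes, other filters on low counts, single libraries, 2 groups only, all deposited libraries, covariates (cumulus markers, prefix of the complex name), a threshold of 0.01, no replicate block and each mouse left out. Of the deposited per-sample columns, 0 were unused. In the main fits 1 complex was left out because its oocyte-labelled library resembled cumulus cells, as the study also removed such a pair.

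All 10 members are named. Of the other pathway genes, up to 6 called genes with the largest changes and a mean of at least 10 CPM are named per comparison, besides the paralogs of members and the 5 genes most like the members in the first set. Members and lists were chosen with earlier results of these data known.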

Additional observations from a re-analysis of the deposited data

Results flagged for a closer look

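Zar1l stood at 277 CPM in the 4mo oocytes of mouse 4mo4, apart from the other 7 mice of that group, of which the nearest was at 251 and the lowest at 228 CPM. Zfp36l2 stood at 15.1 CPM in the 2moNoH oocytes of mouse 2moNoH12, apart from its group, of which the nearest was at 17.3 and the farthest at 19.1 CPM. In all, 60 groups of mice were checked for such a sample, and chance alone sets one apart in about 1 of 20 groups.

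The oocyte-labelled library of mouse Middle3 that was left out held 10953 CPM of the 12 cumulus markers, against at most 2545 CPM in the other oocytes of the first set, and 213 CPM of oocyte markers, against at least 8269 CPM. Among the members it had 15.7 CPM of Btg4, 6.71 CPM of Zar1, 7.0 CPM of Cpeb1 and 125 CPM of Zfp36l2.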

How the results depend on the processing

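In oocytes, Zar1l had log2 differences of −0.83 to −0.51 under CR over 11 other settings and was called in 10 of them. It was also called without each mouse in turn (−0.82 to −0.64). Ybx2 had −0.63 to −0.36 over the 11 settings, and was called in 10 of them and in 4 of 7 fits without a mouse. The values of −0.51 and −0.36 are those with all deposited libraries, where both calls were lost. Without each mouse in turn 1 to 2 members were called. With all deposited libraries 0 of 10 were called, with a threshold of 0.01 it was 1, and with single libraries as replicates 6, adding Cnot7, Zar1, Cpeb1 and Pabpc1l. Single libraries also gave 3 members for Old against Young (Zar1 −0.64, Pabpc1l −0.63 and Dazl 0.59), 1 for Old against Young in cumulus cells (Zfp36l2 −0.68), 2 for hyperovulation in cumulus cells (Cnot7 and Dazl) and 2 for the difference between cell types under CR. These fits treat oocytes of the same mouse as independent. With the 2 groups alone, 1 member was called for Old against Young in cumulus cells, Zfp36l2 at −0.75. The cause was not tested. The other 342 counts of members called were within 1.5 times the main count, and no direction turned. All 10 members differed between oocytes and cumulus cells in every setting, also with no replicate block, which changed no other call of a member.

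Counts of genes called moved more. In oocytes, CR against Middle had 2067 genes, 3343 with DESeq2, 3372 with no filter, 889 with all libraries, 7525 with single libraries, 3319 without oocytes of high cumulus markers (chosen after seeing the data), 637 at a threshold of 0.01 and 858 to 2534 without a mouse. Old against Young had 0, but 8 with DESeq2, 805 with no filter, 572 with the 2 groups alone, 1613 with single libraries and 1 without oocytes of high cumulus markers. With no filter Middle against Young had 131 and Old against Middle 165, against 0. For 4mo against 2mo, 0 became 2 with DESeq2 and 3 with single libraries. For 9mo against 2mo, 15 became 42 with DESeq2, 9 with total counts or the marker covariate, 24 with the 2 groups alone, 36 with single libraries and 8 at 0.01, with 7 to 14 without a mouse. For 14mo against 2mo, 54 became 177, 218 with single libraries and 23 at 0.01, with 29 to 61 without a mouse. For 14mo against 9mo, 1 became 2 with the covariate or the 2 groups alone and 4 with single libraries, and for hyperovulation 0 became 6 with single libraries.

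In cumulus cells, Old against Young had 6, but 24 with no filter, 429 with the 2 groups alone, 896 with single libraries and 3 at 0.01, with 0 to 6 without a mouse. CR against Middle had 22, but 370 with DESeq2, 13 with RLE factors, 323 with no filter, 1 with the 2 groups alone, 877 with single libraries and 1 at 0.01, with 0 to 103 without a mouse. For 14mo against 2mo, 23 became 10 with filterByExpr, 68 with the 2 groups alone, 349 with single libraries and 5 at 0.01, with 6 to 21 without a mouse. For hyperovulation, 492 became 1055 with DESeq2, 770 with filterByExpr, 1081 with the prefix covariate, 228 with the 2 groups alone, 3063 with single libraries and 122 at 0.01, with 209 to 774 without a mouse. Between cell types, CR had 221 genes, but 139 with RLE factors, 113 and 106 with total counts, 25 with all libraries, 1164 with DESeq2, 3099 with single libraries and 46 at 0.01, with 41 to 306 without a mouse. Hyperovulation there had 200, but 126 with no replicate block, 1352 with single libraries and 61 at 0.01, with 80 to 282 without a mouse.

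Total counts in place of TMM moved the share of higher calls from 60.6% to 47.4% for CR against Middle in oocytes, from 52.7% to 40.1% for oocytes against cumulus cells in the first set, from 90.05% to 54.9% (59.0% with RLE factors) for the difference between cell types under CR, from 53.3% to 66.7% for 9mo against 2mo and from 77.3% to 66.7% (61.5% with RLE factors) for CR in cumulus cells. RLE factors moved it from 56.0% to 45.8% for the difference under hyperovulation. Total counts moved the median log2 difference of all genes from 0.04 to 0.18 for Old against Young, from 0.00 to 0.10 for Old against Middle, from 0.01 to −0.68 (−0.32 with RLE factors) and from −0.21 to −0.56 for oocytes against cumulus cells, and from 0.18 to −0.08 for the difference under CR.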
